A study of Mus musculus with 12 samples.

Results

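The genes described here are 10 genes of glucose uptake and breakdown: the glucose transporter Slc2a3, the hexokinases Hk1 and Hk2 with the hexokinase-family gene Hkdc1, the phosphofructokinases Pfkm, Pfkl and Pfkp, pyruvate kinase Pkm, and the lactate dehydrogenases Ldha and Ldhb. Slc2a3 encodes a transporter and not an enzyme of glycolysis. These are 10 of 18193 genes that a probe set names alone. They were found by gene symbol, current or older, among the 45101 probe sets of an Affymetrix expression array, and 23 probe sets matched. The genes were chosen by name with measured values of these arrays in view. An earlier analysis of the same arrays gave Hkdc1 as higher in adult mutants, and it was assumed here that this contrast led to its choice, so the adult mutant values of all 10 genes are given without a test. Of the 23 probe sets, 22 list 1 gene each, and 18 of these passed a filter on low values. The other one lists Hk1 together with genes of ribosomal protein type. It passed the filter and was 1.78-fold lower in adult than in embryonic wild types. It cannot be assigned to Hk1 alone, so it is not named further. The last 4 lay below the filter.

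Glycolysis splits glucose into pyruvate in the cytosol. Glucose enters the cell through facilitative transporters, hexokinases trap it as glucose 6-phosphate, phosphofructokinase makes the committed step, pyruvate kinase makes pyruvate, and lactate dehydrogenase interconverts pyruvate and lactate. Most steps have several isoenzymes, encoded by separate genes and used in different tissues and at different ages. Mature brain is known for Hk1 and for the neuronal transporter encoded by Slc2a3, and growing or embryonic tissue for Hk2 and Ldha.

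The arrays hold RNA of 4 groups of 129/Sv mice, 3 arrays in each. Adult dorsal cerebral cortex came from male wild types aged 155, 112 and 101 days and from male Qkf gt/gt mutants aged 155, 112 and 99 days. Dorsal telencephalon at E12.5, where E counts days of embryonic development, came from wild types and Qkf gt/gt mutants of 2 crosses, with 1 wild type and 1 mutant from the first cross and 2 of each from the second. Qkf is another name of Kat6b, a histone acetyltransferase gene, and gt/gt marks a gene trap on both alleles in every cell of the animal. The labels give no sex for embryos, and they do not say how many embryos went into an array. The numbers 1 to 3 below name the arrays within a group. The comparisons ask which transcripts depend on Kat6b at each stage.

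Values are log2 expression values made by GCRMA, and their lowest value was 2.19 on every array. A log2 difference of 1 is a 2-fold difference, and differences from values near that floor understate the change. Kat6b checked the labels: its main probe set stood at 9.35 to 9.72 in adult wild types, 6.92 to 7.25 in adult mutants, 11.28 to 11.42 in embryonic wild types and 6.22 to 7.72 in embryonic mutants. Slc17a7 and Pax6 followed the labels. Slc17a7, a vesicular glutamate transporter of cortical neurons, averaged 10.88 in adult and 4.32 in embryonic wild types, and the progenitor gene Pax6 averaged 3.74 and 10.24. Other neuron markers did not all follow Slc17a7: of 4 tested excitatory neuron markers, 2 were called higher and 1 lower in adult wild types by limma. The lower one was Neurod6 (log2 difference -1.47), and 1 was not called. Markers of ventral telencephalon had a mean of 6.10 on embryonic wild type 1 and of 5.55 on embryonic mutant 1, the first-cross pair, against 3.34 to 4.45 on the other 4 embryonic arrays. The array file name of mutant embryo 1 carries another suffix than those of the other 5 embryos. For the actin control, the signal at the 3 prime end exceeded that at the 5 prime end, a gap that grows as RNA degrades, by 1.91 on adult mutant 1 and 1.47 on adult mutant 2, and by 1.06 to 1.13 on the remaining 4 adult arrays. Adult mutant 3 stood apart on choroid plexus markers, with a mean of 6.05 against 3.60 to 3.99 on the other 5 adult arrays and with Ttr at 15.16 against 6.78 to 9.18.

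The largest differences among these genes lay between the stages. Hk1 and Hk2 moved in opposite directions, as did Ldha and Ldhb, while no tested phosphofructokinase probe set fell. In wild types, Slc2a3, Hk1, Pfkm, Pfkp and Ldhb rose from E12.5 telencephalon to adult cortex on every tested probe set listing 1 gene. Hk2 and Ldha fell, and 1 of 2 Pfkl probe sets rose. The single Pkm probe set did not pass the test. Of 17 tested probe sets of the 9 genes other than Hkdc1, 13 rose and 2 fell (limma, adjusted p under 0.05), all 15 without overlap of the groups (82.2% of all probe sets), and the median log2 difference was 1.97, against -0.17 over all probe sets tested. Such calls were common: 78.8% of the 23849 probe sets tested were called in this comparison, 34.7% higher and 44.1% lower in adults. Of these 17 probe sets, 1 of Pfkp passed the filter through adult arrays alone. The stages are whole tissues of different cell makeup. All 7 tested oligodendrocyte markers, all 7 microglia markers and 5 of 6 astrocyte markers were higher in adults, and all 6 radial glia markers were lower. Several of these, Mobp, Mal, Aqp4, P2ry12, C1qa, Nes and Pax6 among them, passed the filter through arrays of 1 stage alone. Such markers could enter only as higher in that stage, so their calls are no support. The mean of the astrocyte list ran from 10.75 to 10.84 in adult and from 6.02 to 6.36 in embryonic wild types, and that of the radial glia list from 6.35 to 6.40 and from 10.97 to 11.02. The part of cell makeup in the differences below was not tested, and fewer cells of a type and less RNA per cell cannot be told apart in such samples. Array file names also differ in their suffix between adults and embryos, so that array set and stage cannot be told apart.

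**Figure D1:**
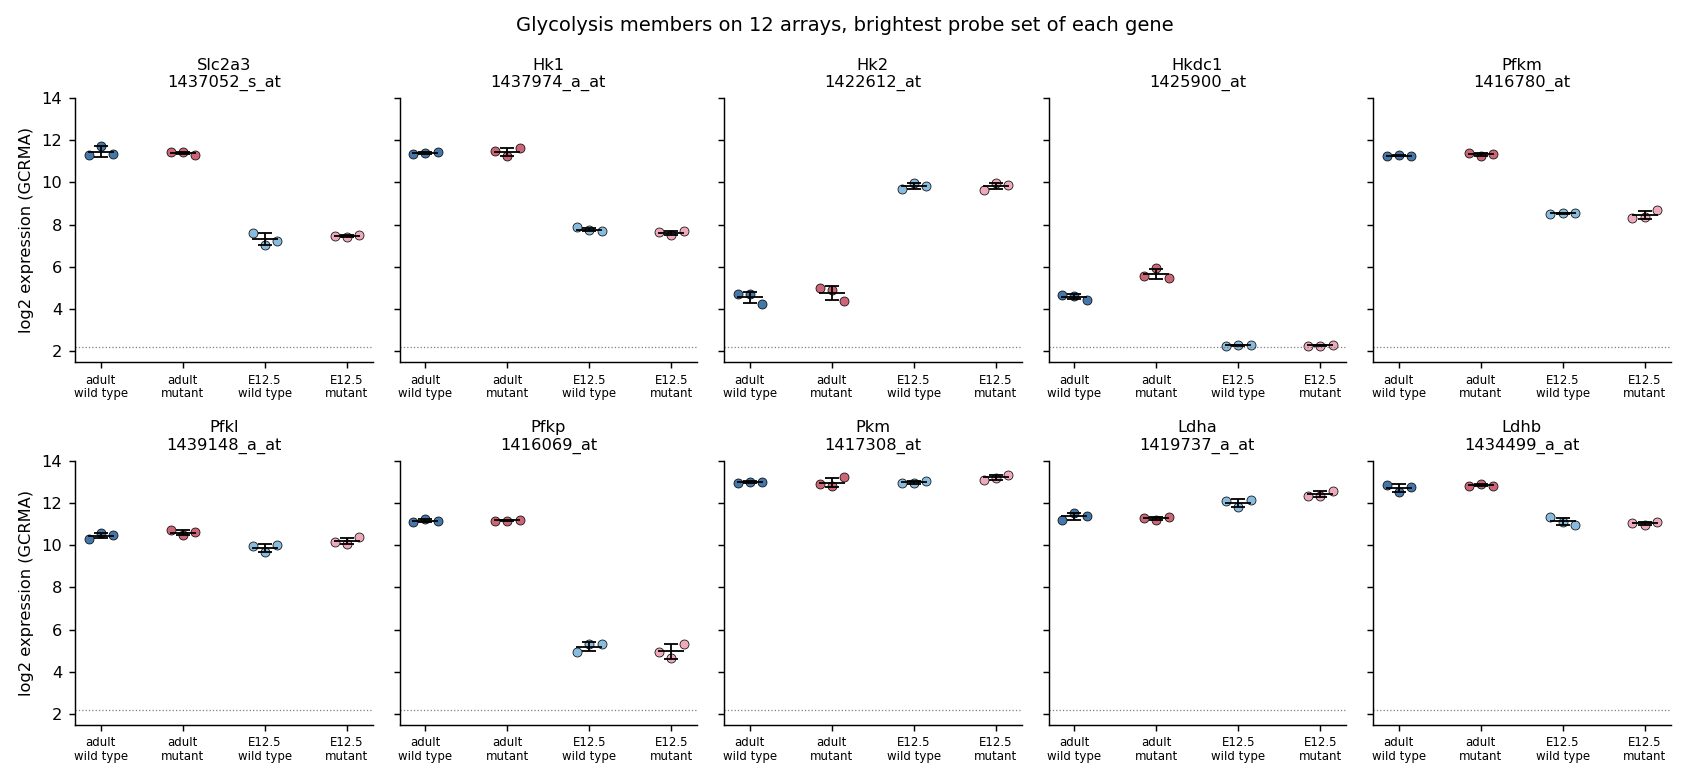
Log2 expression on each of the 12 arrays (points) for the brightest probe set of each of the 10 genes, with the mean and SD of 3 arrays in black, the 4 groups along the x axis and the lowest value of 2.19 as a dotted line. Hk2 is near 9.84 in E12.5 wild types and near 4.56 in adult wild types, while Hk1 and Pfkp go the other way and Pkm stays level.

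**Figure D2:**
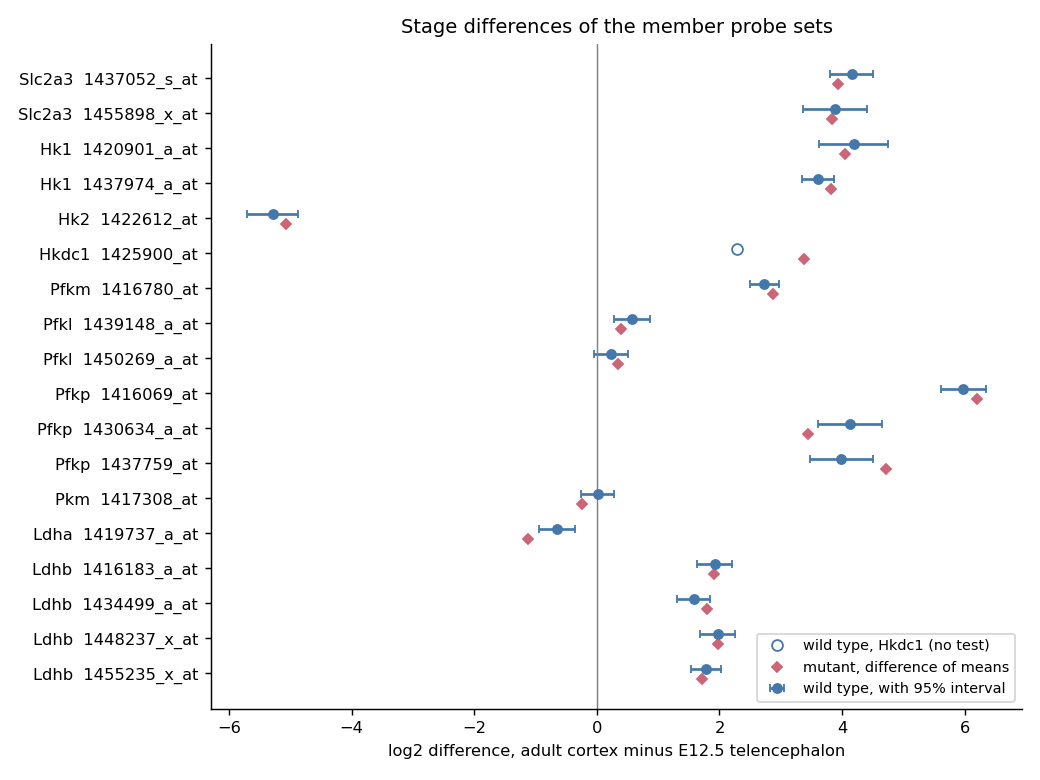
Log2 differences between adult cortex and E12.5 telencephalon for the 18 tested probe sets, with the 95% interval in wild types (circles) and the difference of means in mutants (diamonds). Pfkp at 5.98 and Hk2 at -5.29 are the outermost points in wild types, and Hkdc1 is drawn open because it was not tested.

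Slc2a3, the high-affinity glucose transporter of neurons, was 17.9-fold higher in adult than in embryonic wild types on its brightest probe set. The adult wild types stood at 11.29, 11.74 and 11.35 and the embryonic wild types at 7.61, 7.05 and 7.24, so the groups lay far apart (log2 difference 4.16, SE 0.16, adjusted p = 6.6e-10 by limma). A second probe set gave 3.89 (adjusted p = 3.5e-08). In mutants the same 2 differences between the stages were 3.93 and 3.83. Of the remaining Slc2a3 probe sets, 1 was at 2.19 on every array and 1 ran from 2.21 to 3.21, below the filter.

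Hk1 encodes the hexokinase bound to mitochondria that predominates in adult brain. Its brightest probe set stood at 11.33, 11.38 and 11.42 in adult wild types and at 7.87, 7.73 and 7.70 in embryonic wild types. That is a rise of 12.2-fold (log2 difference 3.61, SE 0.12, adjusted p = 1.7e-10), and the other named Hk1 probe set rose by 4.19 on the log2 scale (adjusted p = 3.5e-08). Both probe sets thus moved one way and by similar amounts, and the mutants showed the like, at 3.82 and 4.05.

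Hk2, the insulin-regulated hexokinase of muscle and of proliferating cells, moved in the opposite direction. It stood at 9.71, 9.98 and 9.84 in embryonic wild types and at 4.71, 4.71 and 4.25 in adult wild types. Its fall of 39.0-fold (log2 difference -5.29, SE 0.19, adjusted p = 4e-10) exceeded the spread within either group many times over. In mutants the fall was 33.7-fold. Hkdc1, a hexokinase-family gene next to Hk1, was near the floor in all 6 embryos, between 2.27 and 2.32, and above it in all 6 adults. Its second probe set stood at 2.19 on every array.

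The phosphofructokinase genes encode subunits of one tetrameric enzyme, named for muscle (Pfkm), liver (Pfkl) and platelet (Pfkp). Pfkm rose 6.63-fold, from 8.51, 8.53 and 8.57 in embryonic to 11.26, 11.29 and 11.25 in adult wild types (log2 difference 2.73, SE 0.11, adjusted p = 9.4e-10). Pfkp rose most, by 63.1-fold on its brightest probe set, from 4.93, 5.31 and 5.31 to 11.11, 11.23 and 11.15 (log2 difference 5.98, SE 0.16, adjusted p = 4.7e-11). The other 2 Pfkp probe sets rose by 4.13 (adjusted p = 2.1e-08) and 3.99 (adjusted p = 2.3e-08), the former from embryonic values near 2.82, close to the floor. That probe set passed the filter through adult arrays alone, so it could enter this comparison only as higher in adults, and its p is no support. Pfkl changed little beside them. Its brightest probe set rose 1.49-fold (log2 difference 0.58, 95% interval 0.28 to 0.87, adjusted p = 0.002), and the second did not pass (0.23, 95% interval -0.05 to 0.51, adjusted p = 0.12).

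Pkm, which makes the 2 main pyruvate kinase splice forms of the body, was bright and level. The adult wild types stood at 12.93, 13.01 and 12.99 and the embryonic wild types at 12.93, 12.94 and 13.04. The difference of 0.01 had a 95% interval of -0.26 to 0.28 (adjusted p = 0.95 by limma), and it was 0.17 after quantile normalization of the arrays. Whether this probe set tells the splice forms apart was not analysed here. The splicing factors that are known to choose between these forms did differ: Ptbp1 fell 17.0-fold (adjusted p = 7.2e-10), Hnrnpa1 fell 5.10-fold (adjusted p = 1.6e-08) and Hnrnpa2b1 fell 3.10-fold (adjusted p = 1.1e-08) from embryonic to adult wild types.

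The lactate dehydrogenase subunits moved apart. Ldha, the muscle-type subunit, stood at 12.09, 11.79 and 12.15 in embryonic and at 11.19, 11.50 and 11.38 in adult wild types, a fall of 1.57-fold (log2 difference -0.65, SE 0.13, adjusted p = 0.00077). Ldhb, the heart-type subunit, rose on all 4 of its probe sets. The brightest averaged 11.12 ± 0.18 in embryonic and 12.70 ± 0.18 in adult wild types (SD, n = 3 each), a rise of 2.99-fold (log2 difference 1.58, adjusted p = 3e-07), and the others rose by 1.78 to 1.97. The groups of wild types did not overlap for either gene. In mutants Ldha fell by more, 2.19-fold, and the difference between wild types and mutants in this fall was not tested.

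Promoter windows of RefSeq (GRCm38.p6) were at hand for 9 of the 10 genes, Slc2a3 being the one without. The 250 bases before a start are shown for the falling genes Hk2 and Ldha and for Ldhb and Hkdc1, 5′ to 3′ on the gene's strand, to show windows with and without the motif below. Capitals mark ACGTG on either strand (read as CACGT on the other), the core that hypoxia-inducible factors are known to bind, with overlapping matches joined. The windows are chr6:82774455-82774704 for Hk2 (minus strand), chr7:46845554-46845803 for Ldha (plus strand, the first of 2 starts), chr6:142507958-142508207 for Ldhb (minus strand) and chr10:62422458-62422707 for Hkdc1 (minus strand).
Hk2: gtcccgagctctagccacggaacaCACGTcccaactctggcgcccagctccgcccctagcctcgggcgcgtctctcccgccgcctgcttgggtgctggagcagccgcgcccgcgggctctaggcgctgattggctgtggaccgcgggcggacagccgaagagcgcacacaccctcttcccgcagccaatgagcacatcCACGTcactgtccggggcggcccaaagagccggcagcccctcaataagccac
Ldha: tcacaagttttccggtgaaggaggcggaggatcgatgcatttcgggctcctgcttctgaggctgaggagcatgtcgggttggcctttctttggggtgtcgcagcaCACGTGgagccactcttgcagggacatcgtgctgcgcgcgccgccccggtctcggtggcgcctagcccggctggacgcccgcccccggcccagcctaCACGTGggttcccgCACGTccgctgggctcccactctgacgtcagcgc
Ldhb: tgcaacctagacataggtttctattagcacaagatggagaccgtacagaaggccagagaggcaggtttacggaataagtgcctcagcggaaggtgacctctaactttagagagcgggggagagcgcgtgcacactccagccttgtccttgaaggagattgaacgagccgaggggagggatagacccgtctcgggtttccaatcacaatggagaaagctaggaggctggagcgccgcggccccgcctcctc
Hkdc1: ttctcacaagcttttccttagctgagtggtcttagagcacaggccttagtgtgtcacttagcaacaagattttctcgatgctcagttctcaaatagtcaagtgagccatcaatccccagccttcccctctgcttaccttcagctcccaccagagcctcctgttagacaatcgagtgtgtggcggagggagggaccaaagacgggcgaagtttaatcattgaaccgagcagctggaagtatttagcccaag

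The Hk2 window holds 2 such stretches and the Ldha window shown 3, while the Ldhb and Hkdc1 windows hold 0. The window of the other Ldha start holds 0 and 9 CG dinucleotides. Of all 32851 windows of this length 16.6% hold at least 1. Among the 15 windows of the 9 genes 5 hold one, those of Hk2, Ldha (1 of its 2 starts), Pfkm (2 of 4) and Pkm (1 of 2). The motif thus also lies before Pfkm, which rose, and Pkm, which did not pass the test. The windows also differ in CG dinucleotides, with 25 in Hk2 and 25 in the Ldha window shown, 14 in Ldhb and 6 in Hkdc1, where the median of all windows is 6. A match is a run of letters and not a measured binding site, and the motif was chosen with the values known.

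In adult cortex Hkdc1 was the one gene of the 10 whose mutants stood apart. Its probe set stood at 4.69, 4.61 and 4.45 in wild types 1 to 3 and at 5.56, 5.95 and 5.48 in mutants 1 to 3. Every mutant lay above every wild type, with means of 4.58 ± 0.12 and 5.66 ± 0.25 (SD, n = 3 each), a 2.12-fold difference. The difference of 1.08 ran from 0.94 to 1.17 over the alternative settings, each array left out in turn among them. These settings reuse the arrays assumed to have led to the choice of Hkdc1, so the range is a description and no support. Adult mutant 3, whose actin control was like that of the wild types (1.09), stood at 5.48, and the 2 mutants with a higher actin difference at 5.56 and 5.95. Mutant 3 is the array with high choroid plexus markers. The ranges of 3 other marker lists did not overlap between the adult groups: the endothelium and pericyte list averaged at most 6.24 in each wild type and 6.37 to 6.40 in mutants, the astrocyte list 10.75 to 10.84 and 10.86 to 10.96, and the radial glia list 6.35 to 6.40 and 6.43 to 6.45. All 7 tested oligodendrocyte markers were lower in mutants, with overlapping list means of 10.26 to 10.65 and 10.12 to 10.35, and 0 markers of these 4 lists were called by limma, while 2 oligodendrocyte and 2 endothelium and pericyte markers had an unadjusted p under 0.05. The part of cell makeup in the Hkdc1 difference was not tested.

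The other 17 tested probe sets overlapped between adult mutants and wild types, while 9.82% of all probe sets had groups without overlap, and nothing is read from these counts. Log2 differences of the brightest probe sets were -0.07 for Slc2a3, 0.07 for Hk1, 0.20 for Hk2, 0.06 for Pfkm, 0.15 for Pfkl, 0.00 for Pfkp, -0.01 for Pkm, -0.08 for Ldha and 0.13 for Ldhb. Hk1, the established brain hexokinase, thus stayed at 11.48, 11.23 and 11.61 in adult mutants, close to its wild-type values. The probe sets of Pfkp were at odds with each other. The dimmest stood at 6.97, 7.25 and 6.61 in wild types and at 5.66, 6.29 and 6.74 in mutants, a difference of -0.71. The middle one stood at 8.77, 8.80 and 8.80 and at 9.30, 9.03 and 8.63, a difference of 0.20. Mutant 1 was the lowest adult on the former and the highest on the latter, and it is also the adult array with the largest actin difference. The part of RNA quality in these values was not tested.

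**Figure D3:**
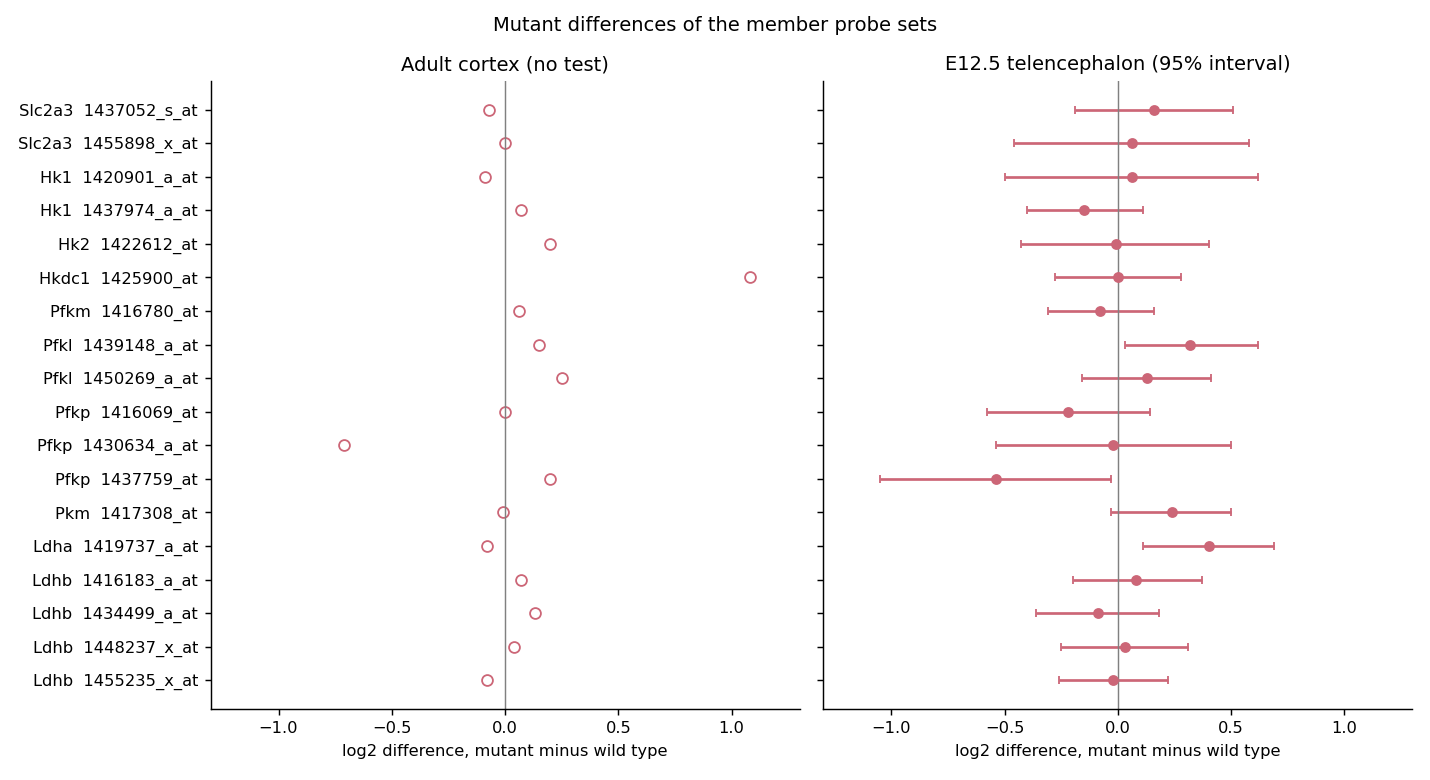
Log2 differences between mutants and wild types for the 18 tested probe sets, in adult cortex (left, open points, no test) and in E12.5 telencephalon (right, with 95% intervals). Hkdc1 lies at 1.08 in adults and at 0 in embryos, and no embryonic probe set passed the test over all probe sets.

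Hkdc1 lies on chromosome 10 (GRCm38.p6, 62383137 to 62423711) just beyond Hk1 (62268855 to 62379920), the closest protein-coding gene on that side. On the other side lie Supv3l1, which encodes an RNA helicase of mitochondria, and Vps26a, a retromer subunit gene. Adult mutants minus wild types gave 0.07 for Hk1, 0.22 for Supv3l1 and -0.03 for Vps26a, against 1.08 for Hkdc1. Tacr2, a tachykinin receptor gene beyond Hk1, was near the floor in all groups, with means of 2.29 to 2.39. The genes whose pattern over the 12 arrays was most like that of Hkdc1 were Cartpt, the precursor of the CART neuropeptides (Pearson correlation 0.992), the transcription factor gene Scrt1 (0.988), Ankrd40 (0.988), Lrfn1 (0.986) and the endothelin-converting enzyme gene Ece1 (0.986). All 5 were higher in adults than in embryos and highest in adult mutants. They were picked for their likeness to Hkdc1 on these same arrays, so this shared pattern follows from the choice and is no support. These arrays form 4 groups, so the correlations describe group levels more than single arrays.

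**Figure D4:**
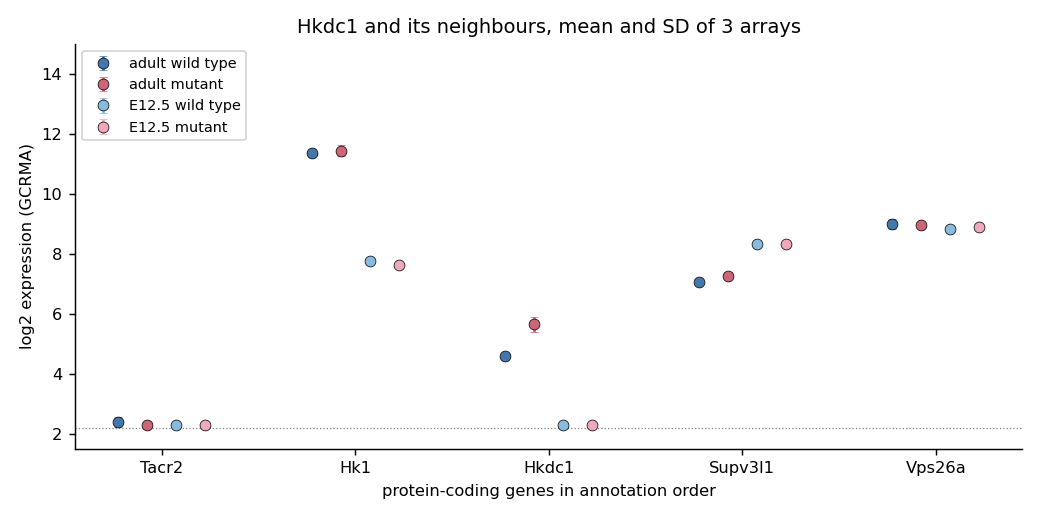
Mean log2 expression with the SD of 3 arrays for Hkdc1 and the 2 protein-coding genes on each side of it, in annotation order along the x axis, in the 4 groups, with the lowest value of 2.19 as a dotted line. Hkdc1 is near the floor in embryos and differs by 1.08 between the adult groups, while Hk1 differs between stages and not visibly between genotypes.

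In embryonic mutant telencephalon no probe set of these genes passed the test: 0 of 18 were called by limma, where 0.0797% of all probe sets were, and 3 had an unadjusted p under 0.05, where 4.59% of all did. For 3 genes a probe set had every mutant above every wild type. Ldha stood at 12.09, 11.79 and 12.15 in wild types and at 12.32, 12.33 and 12.58 in mutants, 1.32-fold more (log2 difference 0.40, 95% interval 0.11 to 0.69, adjusted p = 0.79). Pkm stood at 12.93, 12.94 and 13.04 and at 13.10, 13.17 and 13.34 (0.24, 95% interval -0.03 to 0.50, adjusted p = 1 by limma). The brightest Pfkl probe set stood at 9.98, 9.65 and 9.99 and at 10.15, 10.07 and 10.37 (0.32, 95% interval 0.03 to 0.62, adjusted p = 1 by limma). Mutant 3 was the highest embryo for each of them. Such separation held for 3 of 18 probe sets, all upward, while 3.17% of all probe sets were separated upward and 4.30% downward. Of the 18 differences 9 were positive and 9 negative, with a median of 0.01.

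The second Pfkl probe set overlapped between the embryonic groups, with a difference of 0.13. The middle Pfkp probe set was lower in mutants, at 4.02, 4.75 and 4.02 against 4.53, 5.12 and 4.75, and overlapped (log2 difference -0.54, 95% interval -1.05 to -0.03, adjusted p = 1 by limma). The brightest Pfkp probe set gave -0.22 and the remaining one -0.02. Hkdc1 stood at 2.27, 2.31 and 2.30 in embryonic wild types and at 2.27, 2.27 and 2.32 in embryonic mutants, so that both groups were near the floor and the arrays could show no fall. Differences were 0.16 for Slc2a3, -0.15 for Hk1, -0.01 for Hk2, -0.08 for Pfkm and -0.09 for Ldhb on the brightest probe sets, each with an interval that holds 0. The microglia markers averaged 4.21 to 4.45 in embryonic wild types and 4.47 to 4.88 in embryonic mutants, with 7 of 7 positive and 0 called, and a part of microglia in these values was not tested.

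Other genes of glucose metabolism were taken from fixed lists, with 1 probe set per gene, and 66 of 92 listed genes were measured and passed the filter. Between the stages in wild types 30 of them rose and 25 fell in adults, and 11 did not pass (limma, adjusted p under 0.05), while 80.8% of the 11445 genes tested this way were called, 38.1% higher and 42.7% lower. Of the 66, 4 passed the filter through arrays of 1 stage alone (Slc2a4 and Slc16a3 in embryos, Pdk4 and Pygm in adults) and could enter only as higher there, so their p-values are no support. Among the other enzymes of glycolysis 5 of 9 rose, 1 fell and 3 did not pass. Eno2, the neuronal enolase, rose from 3.21, 4.81 and 4.08 in embryos to 13.37, 13.32 and 13.35 in adults (log2 difference 9.32, adjusted p = 2.1e-10). Aldoc, the brain aldolase known from astrocytes, rose 10.6-fold (adjusted p = 0.0073), a fold that was 4.33 without embryonic wild type 1 and 17.4 without embryonic wild type 3. Aldoa rose 4.60-fold (adjusted p = 3.1e-07) and Pgam1 rose 1.58-fold (adjusted p = 0.00042). Adpgk, an ADP-dependent glucokinase gene, fell 1.74-fold (adjusted p = 0.017), and its call was lost without adult wild type 2 (adjusted p = 0.057 by limma) or embryonic wild type 2 (adjusted p = 0.073 by limma). Pgk1, like Pkm, was level, at -0.04 (adjusted p = 0.71 by limma).

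Of 7 other transport genes 3 rose and 4 fell in adults. Slc2a1, the glucose transporter of the blood-brain barrier and of glia, fell 2.76-fold (adjusted p = 2.7e-06) while Slc2a3 rose. The lactate exporter gene Slc16a3, counted among the 4, fell (log2 difference -1.34, adults at or near the floor and the groups overlapping). It passed the filter through embryonic arrays alone, so its p is not given. Slc16a1 fell 1.75-fold (adjusted p = 0.00062), and the neuronal lactate importer gene Slc16a7 rose 2.52-fold (adjusted p = 0.0037). Slc2a8 rose 2.79-fold (adjusted p = 5.4e-07), as did Bsg, the partner protein of lactate transporters, by 2.47-fold (adjusted p = 5.1e-05).

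Among regulators 3 of 9 rose and 6 fell. Pfkfb2, a kinase-phosphatase that sets an activator of phosphofructokinase, rose 4.04-fold (adjusted p = 4.5e-07). Pfkfb4 rose 1.58-fold (adjusted p = 0.0031), and Tigar, which lowers that activator, rose 1.52-fold (adjusted p = 0.0038). The remaining falls included Ptbp2, the neuronal relative of Ptbp1, at 3.95-fold (adjusted p = 2.1e-08). Of 13 genes that bring pyruvate into mitochondria 8 rose and 2 fell: the pyruvate dehydrogenase phosphatase gene Pdp1 rose 19.2-fold (adjusted p = 2.9e-08), the pyruvate dehydrogenase kinase gene Pdk2 rose 10.4-fold (adjusted p = 2.4e-06), and Mpc1, of the pyruvate carrier, rose 4.01-fold (adjusted p = 8.2e-07). The kinase gene Pdk4, counted among the 8, rose 11.8-fold. It passed the filter through adult arrays alone, so its p is not given. The kinase genes Pdk1 and Pdk3 fell, 2.14-fold (adjusted p = 0.00073) and 2.10-fold (adjusted p = 1.1e-05).

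Of 14 genes of the pentose phosphate pathway and of glycogen 10 fell and 3 rose. Pgm2 fell 5.93-fold (adjusted p = 4.9e-07). The oxidative pentose phosphate genes Pgls and Pgd fell 4.89-fold (adjusted p = 5.2e-08) and 4.51-fold (adjusted p = 3.2e-09), and Rpia fell 2.96-fold (adjusted p = 2.5e-07). Glycogen phosphorylase Pygm, counted among the 3, rose 3.39-fold. It passed the filter through adult arrays alone, so its p is not given. Of 12 hypoxia-response genes 7 rose and 2 fell, among them Ndrg1, which rose 20.4-fold (adjusted p = 0.00022; 10.4-fold without embryonic wild type 1 and 30.7-fold without embryonic wild type 3), Bnip3, which rose 4.99-fold (adjusted p = 1.3e-08), Ddit4, which fell 5.12-fold (adjusted p = 2.3e-07), and Kdm3a, which fell 4.84-fold (adjusted p = 2.1e-08). Of the gluconeogenesis genes 2 of 6 passed the filter, and G6pc3 rose 3.92-fold. Every embryonic wild type of G6pc3 lay under the filter value, and beside the adults only embryonic mutant 3 lay over it. It could thus enter this comparison only as higher in adults, and its p is not given.

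**Figure D5:**
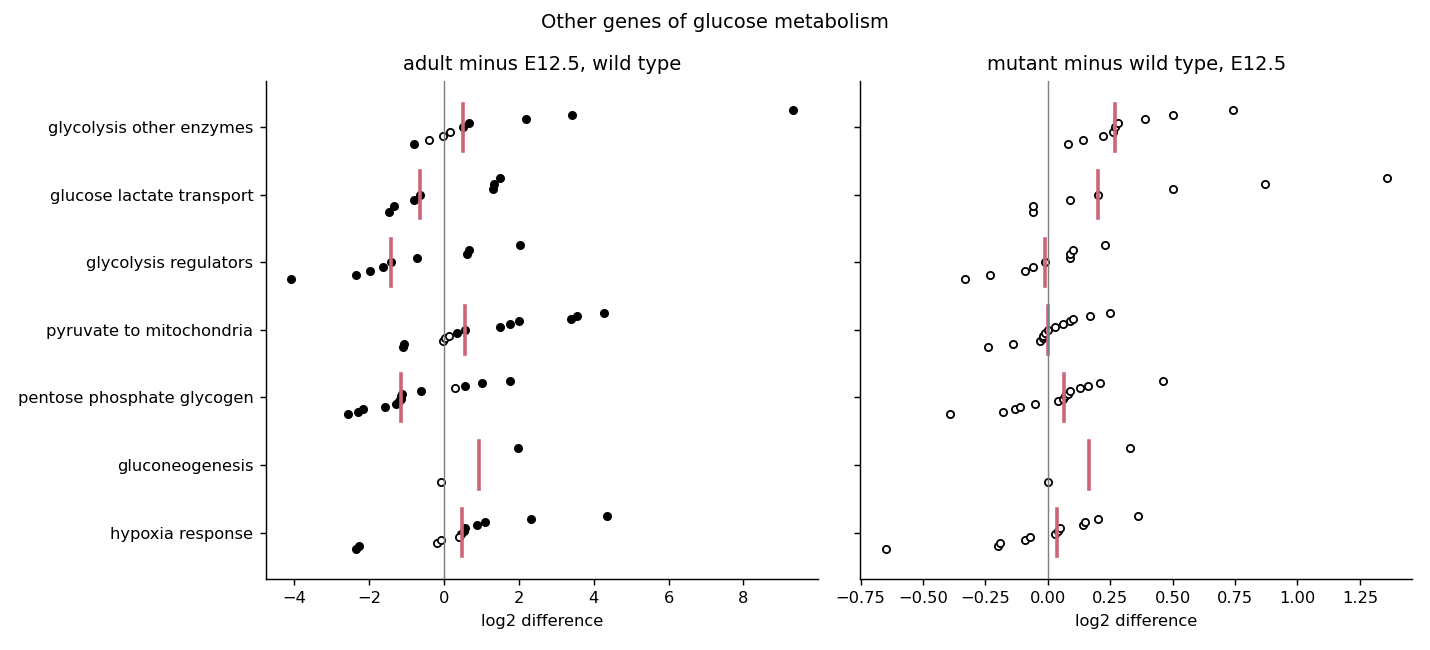
Log2 differences of the 66 other genes of glucose metabolism, by list, between the stages in wild types (left) and between mutants and wild types at E12.5 (right). Filled points passed the test, open points did not, and the bar is the median of the list. In the right panel the 9 other glycolysis enzymes past the filter lie above 0 and none passed the test.

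In embryonic mutants 0 of these 66 genes were called by limma, where 0.0437% of the genes tested were, and 6 had an unadjusted p under 0.05, where 4.24% of all genes did. In 7 every mutant lay above every wild type and in 1 below, where 3.23% and 5.06% of all genes did. Slc2a4 and Slc16a3 are among both the 6 and the 7. Both needed the embryonic mutants to pass the filter, so they are no support there. Of the 15 other enzymes of glycolysis that were measured, 9 passed the filter, and all 9 had a positive difference, none past the test. Their median was 0.27, against -0.011 over all probe sets tested, where a gene can have several. Over all 66 listed genes 43 differences were positive and 23 negative, with a median of 0.08. The probe sets of the 10 genes had 9 positive and 9 negative differences. The 9 were measured on the same arrays, so their signs are not independent. The 6 below the filter differed by -0.36 (Gapdhs) to 0.46 (Pgam2). Pgk1, phosphoglycerate kinase, stood at 12.56, 12.52 and 12.60 in wild types and at 12.68, 12.86 and 12.93 in mutants (0.26, adjusted p = 0.95 by limma). Pgam1, phosphoglycerate mutase, stood at 12.11, 12.12 and 12.23 and at 12.25, 12.34 and 12.72 (0.28, adjusted p = 1 by limma). For both, every mutant lay above every wild type. The 3 prime Gapdh control probe set stood at 14.14, 14.10 and 14.20 in wild types and at 14.16, 14.20 and 14.34 in mutants, which overlap. The 5 prime one stood at 14.17, 14.24 and 14.33 and at 14.35, 14.37 and 14.5, with every mutant above every wild type. The middle one stood at 13.88, 13.94 and 14.06 and at 14.05, 14.07 and 14.22, which overlap. Aldoc differed more between the crosses than between the genotypes, at 7.43 (wild type 1) and 8.93 (mutant 1) in the first cross against 11.18 to 11.70 in the second. The 9 genes stayed positive without both arrays of the first cross, and 8 of 9 did without mutant 1, wild type 1 or wild type 2 in turn. In adult mutants 3 of the 9 were positive and 6 negative.

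The rule for naming genes took the 2 of lowest p in embryonic mutants, Slc2a4 and Slc16a3. Both needed those mutants to pass the filter, so this rank is no support. Slc2a4, the insulin-responsive glucose transporter, stood at 3.60, 3.61 and 3.91 in wild types and at 4.23, 4.65 and 4.85 in mutants (log2 difference 0.87). It passed the filter only through the 3 embryonic mutants, so its p in this comparison depends on the values that let it in, and is not given. Slc16a3, an exporter of lactate, stood at 4.10, 2.66 and 4.45 in wild types and at 5.14, 4.85 and 5.31 in mutants (1.36, SE 0.37). Outside the embryonic mutants only wild types 1 and 3 lay over 4, too few for the filter. It thus needed the mutants to pass, and its p is not given either. Both were low in adults, where Slc2a4 ran from 3.06 to 3.30 and Slc16a3 from 2.19 to 2.81 over all 6 arrays.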

How the data were processed

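The authors deposited 1 log2 expression value per probe set and array, made with GCRMA, per the submitters' processing notes; they give no version or settings. The labels' protocols describe a two-cycle amplification of total RNA, which favours the 3 prime end. The values were used as deposited. Of 45101 probe sets 34945 list 1 gene, 932 several, 9160 none and 64 are controls. Symbols were updated by gene ID.

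Probe sets, controls aside, with a log2 value over 4 on at least 3 arrays (23849) were fitted on 4 group means over 12 arrays with limma 3.58.1 in R 4.3.3 (lmFit, eBayes), and p-values were adjusted by Benjamini-Hochberg over all of them. A call is an adjusted p under 0.05. The code was tested on simulated data. Lists used the probe set of highest mean per gene. Named genes were every probe set of the 10 genes and, from each list, up to 4 of the largest called changes each way between stages, and for embryonic mutants those called or, with none, the 2 of lowest p. The text names part of these. Pgk1, and Pgam1 and Aldoc in embryonic mutants, were named after their values were seen. Members and lists were chosen with earlier results of these data known. Each adult array has its own mouse number in the labels. Embryonic arrays have only their parents, so the spread between them may be technical. Every p-value rests on a spread shared by all 12 arrays, adult ones included, and not on that of the embryonic samples alone. With only the 2 embryonic groups fitted, 3 of all probe sets were called in embryonic mutants, against 19 in the main fit. The number of arrays limits the precision. Alternatives varied filter, probe sets, scaling, samples, variance model, weights, pairing and each array. Adult pairs come from ages and embryonic pairs from the parents in the labels. Deviations from group means correlated at 0.12 to 0.42 within a cross and at -0.28 to -0.19 between crosses, and at -0.00 to 0.20 within adult age pairs.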

Additional observations from a re-analysis of the deposited data

How the results depend on the processing

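The stage differences in wild types kept their side of the threshold for the 17 tested probe sets under every alternative run, and their direction except for Pkm, which ran from -0.01 to 0.17. The count of 15 calls was 15 in each, except with 1 probe set per gene, where fewer were tested and 8 of 9 were called. Over all features 81.4% were called with 1 probe set per gene, 42% without a filter and 75.5% to 82.1% under the other settings. No probe set of the 10 genes was called in embryonic mutants under any alternative. Ldha there ran from 0.29 to 0.48, with adjusted p between 0.21 and 1. The Hkdc1 difference in adults ran from 0.94 to 1.17 over the alternatives, a description only, since the same arrays were assumed to have led to its choice. Of the 66 other genes, calls in embryonic mutants numbered 1 with array weights, 1 without both arrays of the first cross and 0 to 1 with 1 array left out. The gene was Slc2a4 each time, which passed the filter through the embryonic mutants alone, so these calls are no support. Over all probe sets 0.361% were called in embryonic mutants with array weights and 0.226% without both arrays of the first cross, against 0.0797% in the main fit. The pair as a replicate block gave 0 calls of the 10 genes and 0 of the 66, and it changed no other call among these and Kat6b than that of Kat6b in adults.

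The adult Kat6b difference of -2.47 (adjusted p = 0.024) kept its size and lost its call without a filter (-2.47, adjusted p = 0.086), with only the 2 groups compared (-2.47, adjusted p = 0.20) and with the replicate block (-2.47, adjusted p = 0.056). Leaving out 1 array gave -2.59 to -2.37 (adjusted p 0.00067 to 0.20), and the call was lost without any single adult array, any embryonic wild type or embryonic mutant 2. In embryos the difference of -4.31 lost its call with only the 2 groups compared (-4.31, adjusted p = 0.21 by limma). It ran from -4.64 to -3.89 with 1 array left out. Fewer arrays give the spread where only 2 groups are compared, and the causes of the lost calls were not tested. Values near the floor limit Hkdc1, Slc16a3 and the dimmer Pfkp probe sets in embryos.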
